A study of Mus musculus with 6 samples.

Results

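The genes described here were 48 genes of the lysosome, which were listed by symbol and found as 48 of the 55401 genes in the deposited expression table. They comprised 15 genes of the vacuolar H+-ATPase (V-ATPase) with its accessory proteins, 8 cathepsins, 10 glycosidases and sulfatases, 7 lipid hydrolases, other hydrolases and lumenal proteins, 6 membrane proteins, and the transcription factors Tfeb and Tfe3. They were measured in mouse bone-marrow-derived macrophages (BMDM), cells of tibia and femur marrow grown for 7 days in medium with serum and L929 cell culture medium. All 6 samples were then exposed to L-OHP (oxaliplatin, a platinum drug used in chemotherapy) at 5 µM for 12 h. In 3 of them (L-OHP+FUC) fucoidan, a sulfated polysaccharide of brown algae, was added at 250 µg/ml 12 h ahead of the drug, and the other 3 (L-OHP) had the drug without fucoidan. Cells without L-OHP were not analysed here, and every fold change therefore compares drug-exposed macrophages that did or did not also have fucoidan. The labels give no strain, sex, age or number of mice and do not say whether the 3 samples of a group were separate cultures or animals, so the spread that the p-values rest on may be technical.

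Lysosomes are acidic organelles in which macrophages degrade what they engulf and what autophagy delivers. The V-ATPase pumps protons into the lumen: its V1 sector, in the cytosol, hydrolyses ATP and turns a rotor that drives protons through the membrane sector V0. The low pH activates the cathepsins, which cut proteins, and the glycosidases, sulfatases and lipid hydrolases, which take apart sugar chains and lipids. Many lysosomal genes carry the CLEAR element, a motif built on CACGTG that is bound by the MiT/TFE factors, among them TFEB and TFE3.

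Values are FPKM, fragments scaled by transcript length and by the number of mapped fragments in the library. A gene was called where limma gave a Benjamini-Hochberg adjusted p under 0.05 over the 12084 genes tested, and fold changes compare L-OHP+FUC with L-OHP on the log2(FPKM + 1) scale. All 48 genes passed the filter on low values. The deposited values hold no counts, so the depth is not known directly. Steps between low FPKM values implied 15.7 to 18.6 M (mega) fragments per library, an estimate that is rough because only 35.3% to 40.6% of low values came out as whole reads within 0.03. On that estimate the fewest fragments in any library were about 204 for Tfeb and 235 for Arsb. The macrophage markers Adgre1, Csf1r, Lyz2 and 5 others were present in every library, with a summed level of 11811 to 16780 FPKM in L-OHP and 12342 to 13389 FPKM in L-OHP+FUC. Of these 8, Csf1r was called higher and Mertk and Fcgr1 lower. Neutrophil markers summed to 3.79 to 4.26 FPKM in L-OHP and 5.70 to 6.56 FPKM in L-OHP+FUC, with Ly6g at 0 in all 6 libraries. In bulk RNA, fewer cells of a type and less RNA per cell cannot be told apart.

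The core of the CLEAR element was looked for in the promoters of the lysosomal genes. RefSeq promoter sequences (GRCm38.p6, 250 bases before to 50 bases after the start) were found for 40 of the 48 genes, and CACGTG, searched on both strands and identical on both, was in 13 of them. That is 32.5%, against 12.5% of the 8468 tested genes with an entry and 7.15% of all 32851 entries. The longer TCACGTGA, which contains it, was in 6 of 40 (15.0%), against 2.43% of tested genes. With G before and C after it, the longest form searched, it was in none of the 40 and in 0.933% of tested genes. The following 60-base windows are shown because they hold the motif in 2 genes that rose with fucoidan (Atp6v0d1 and Gaa), in one that fell (Mcoln1) and in 3 that were not called (Ctsd, Atp6v0b and Lamp1, the entry with 4 copies). They run 5′ to 3′ on the gene's strand with CACGTG in capitals, and lie at chr8:105566055-105566114 (minus strand), chr11:119267796-119267855 (plus), chr8:3500434-3500493 (plus), chr7:142387893-142387952 (minus), chr4:117887324-117887383 (minus) and chr8:13159096-13159155 (plus), in the order printed.
Atp6v0d1: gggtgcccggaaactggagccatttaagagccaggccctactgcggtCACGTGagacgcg
Gaa: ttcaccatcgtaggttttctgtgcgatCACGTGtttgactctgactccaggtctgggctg
Mcoln1: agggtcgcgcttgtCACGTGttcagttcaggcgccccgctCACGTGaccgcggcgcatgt
Ctsd: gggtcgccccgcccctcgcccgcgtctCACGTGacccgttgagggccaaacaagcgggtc
Atp6v0b: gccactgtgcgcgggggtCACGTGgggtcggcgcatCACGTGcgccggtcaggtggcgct
Lamp1: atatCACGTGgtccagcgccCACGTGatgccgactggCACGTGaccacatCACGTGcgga

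Genes with the motif thus stood on both sides of the comparison and among the genes not called. The 13 lysosomal genes with CACGTG had a median log2 fold change of 0.24, with 2 called higher and 1 called lower, and the entries without it had a median of 0.08. Among tested genes the medians were -0.06 with and -0.08 without the motif. Of the 1058 tested genes with CACGTG, 112 were called higher and 211 lower. Of all genes tested, 7.67% were called higher and 19.3% lower. A match is a run of letters in the window and was not tested for binding.

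Across the 48 genes, 6 rose with fucoidan (Atp6v0d1, Gaa, Npc1, Atp6v1h, Neu1 and Tfe3), 2 fell (Mcoln1 and Atp6v1d) and 40 did not pass. The 6 are 12.5% of the list, beside 7.67% of all genes tested that were called higher, and the 2 are 4.17%, beside 19.3% called lower (27.0% were called in either direction). The share called higher was larger among well expressed genes, to which nearly all of the list belongs. With a filter at a mean of 5 FPKM, 12.7% of 5917 genes were called higher and 16.3% lower. Of the 47 listed genes that passed that filter, 7 were higher and 2 lower. The median log2 fold change was 0.13, and 31 of the 48 values were above 0, whereas the median of all genes tested was -0.10 and 39.1% of them were above 0. The samples of the groups did not overlap in 16 genes higher in L-OHP+FUC (33.3%) and 3 lower (6.25%), beside 16.1% and 30.9% of all genes tested. The scale matters for these counts: after median ratio rescaling, which moves the median of all genes to -0.01, 14 of the 48 genes were called higher and 0 lower by limma (2 lower at an unadjusted p under 0.05), beside 13.1% and 13.9% of all genes. With quantile normalization 6 of the 48 genes were higher and 3 lower, beside 1565 and 1359 of the 12084 genes tested. The share called higher was then no larger in the list than among all genes, while the share called lower was smaller. The median log2 fold change of the list was 0.09 on that scale, beside 0.03 for all genes. With a correction for GC content and length the split was 11 higher and 1 lower, beside 11.5% and 11.9% of all genes. That correction turned the direction of 9 genes that were called neither with nor without it, 8 of them from below to above 0 (Atp6v1a, Atp6ap2, Ctsb, Ctsc, Galc, Asah1, Ppt1 and Lamp2) and Tfeb from above to below. Median ratio rescaling turned 6 such genes from below to above 0 (Atp6v1a, Ctsb, Ctsz, Arsb, Asah1 and Ppt1), and quantile normalization turned Arsb.

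**Figure D1:**
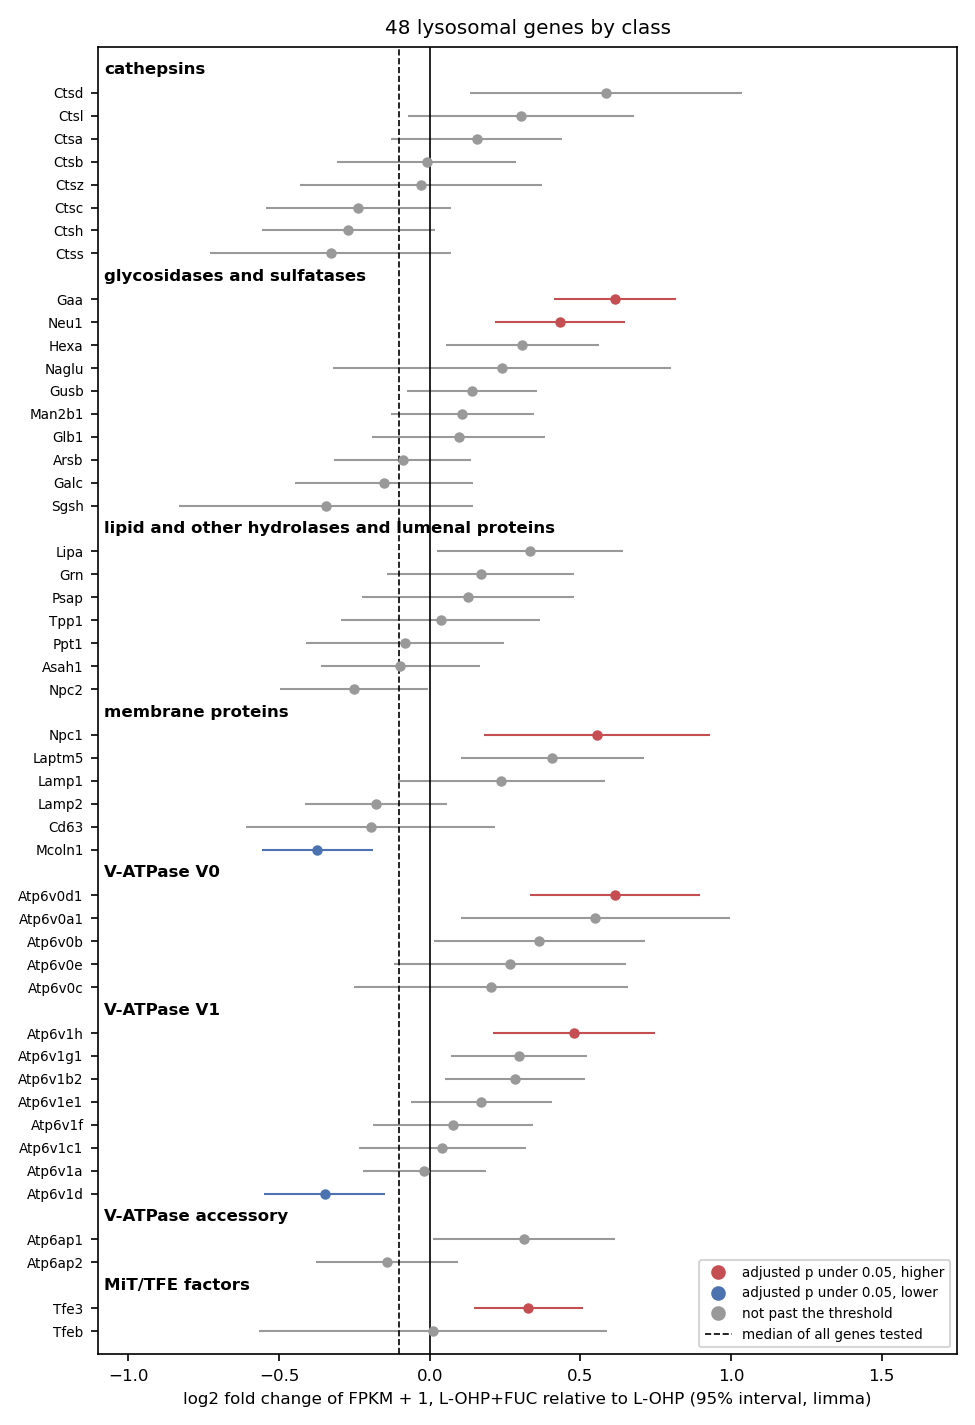
Log2 fold change of FPKM + 1 (x axis, L-OHP+FUC relative to L-OHP) of the 48 lysosomal genes, grouped by class, with 95% limma intervals (n = 3 per group). Red and blue points are the 6 genes called higher and the 2 called lower, grey points the 40 others, and the dashed line is the median of all genes tested (-0.10). All 5 V0 subunits lie to the right of 0, while the cathepsins lie on both sides.

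The proton pump had the highest median of the classes set side by side. Of its 15 genes, 2 rose (Atp6v0d1 and Atp6v1h), 1 fell (Atp6v1d) and 12 did not pass. The rises were 13.3% and the fall 6.67% of the class, beside 7.67% and 19.3% of all genes tested. Of the 15 values, 12 were above 0, and the median was 0.27. Summed over the 15 genes, the level was 1295, 1212 and 1394 FPKM in the L-OHP samples and 1537, 1527 and 1460 FPKM in the L-OHP+FUC samples. Every L-OHP+FUC sum thus lay above every L-OHP sum. These sums are not the whole pump, because they leave out 4 other tested isoform genes that are described below. Of those 4, 3 were lower and 1 higher with fucoidan, without overlap of the groups. The means went from 136 to 75.3 FPKM for Atp6v0d2 and from 180 to 154 FPKM for Tcirg1. The 8 cathepsins had no called gene and a median of -0.02, and their summed level overlapped, with 13875, 12053 and 14324 FPKM in L-OHP against 14493, 14603 and 13333 FPKM in L-OHP+FUC. Of the 10 glycosidases and sulfatases, 2 rose (20.0%, beside 7.67% of all genes tested). By limma 0 fell (0 also at an unadjusted p under 0.05), beside 19.3%, and the median of the 10 was 0.12. Their sums did not overlap, at 750, 727 and 795 FPKM in L-OHP and 967, 897 and 856 FPKM in L-OHP+FUC. Hexa, which was not called, was the largest part of each sum, at 399, 363 and 415 FPKM and at 516, 491 and 451 FPKM. Of the 10 log2 fold changes, 3 were below 0. The difference between the classes was not tested. With quantile normalization, which puts the median of all genes at 0.03, the medians became 0.20 for the V-ATPase, 0.09 for the glycosidases and sulfatases and -0.23 for the cathepsins.

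In the V0 sector, all 5 genes had values above 0 (median 0.36), as they did in all 15 alternatives. Atp6v0d1 was the one called (20.0%, beside 7.67% of all genes tested that were called higher). Atp6v0d1 (chr8:105524465-105566047, mm10) encodes subunit d1, which links the V1 rotor to the membrane ring. Its level was 89.5, 71.9 and 88.8 FPKM in L-OHP and 139.7, 123.1 and 121.1 FPKM in L-OHP+FUC. All 3 samples with fucoidan were above all 3 without. The means were 83.4 ± 10.0 and 128.0 ± 10.2 FPKM (SD, n = 3), a log2 fold change of 0.62 (SE 0.12, limma adjusted p = 0.0144). Without L-OHP+FUC replicate 1 or 2 the adjusted p was 0.0555 and 0.0530.

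The other V0 genes were not called. Atp6v0a1, the a1 isoform of the membrane subunit that forms the proton path, was at 19.2, 16.1 and 27.8 FPKM in L-OHP and 31.1, 32.3 and 28.1 FPKM in L-OHP+FUC. L-OHP replicate 3 stood close to the fucoidan samples and the other L-OHP samples well below, with a log2 fold change of 0.55 (limma adjusted p = 0.0712). Without that replicate it was 0.76 (adjusted p = 0.0178). Atp6v0c, a ring subunit, had the lowest fold change of the sector at 0.20 (95% interval -0.25 to 0.66). Its values of 210, 193 and 319 FPKM in L-OHP spanned the 272, 283 and 258 FPKM in L-OHP+FUC. A processed copy of it, Atp6v0c-ps2, was listed at a mean of 56.4 FPKM, so the reads of Atp6v0c may have been split between near-identical sequences. Atp6v0b, a second type of ring subunit, was at 0.36 and Atp6v0e at 0.27, with adjusted p of 0.110 and 0.256.

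In the V1 sector, 1 of 8 genes rose and 1 fell (12.5% each, beside 7.67% and 19.3% of all genes tested), with a median of 0.12. Atp6v1h (chr1:5070018-5162529) encodes the regulatory subunit H, which restrains ATP hydrolysis when V1 is free of V0. It was at 12.98, 10.2 and 12.2 FPKM in L-OHP and 17.7, 15.3 and 17.3 FPKM in L-OHP+FUC, without overlap. The log2 fold change was 0.48 (SE 0.11, limma adjusted p = 0.0248). The call was lost without any single L-OHP+FUC replicate (adjusted p 0.0579 to 0.0870), without L-OHP replicate 3 (0.0505) and with no filter (0.0514), whereas the GC and length correction gave 0.88. Atp6v1d (chr12:78840725-78861638), subunit D of the central rotor, showed the reverse. Its level was 24.8, 22.4 and 23.9 FPKM in L-OHP and 18.9, 17.2 and 19.0 FPKM in L-OHP+FUC, so that every fucoidan sample was below every sample without it. It fell by 0.35 on the log2 scale (SE 0.08, adjusted p = 0.0264). After the GC and length correction the difference was -0.12 (adjusted p = 0.332), after median ratio rescaling the adjusted p was 0.0935, and leaving out any of 4 libraries (L-OHP replicate 1 or 3, L-OHP+FUC replicate 1 or 2) gave 0.0613 to 0.108.

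The catalytic genes of V1 were not called. Atp6v1a, the subunit that hydrolyses ATP, was at 113 ± 2.44 FPKM in L-OHP and 111 ± 6.73 FPKM in L-OHP+FUC (SD, n = 3), with a log2 fold change of -0.02 (95% interval -0.22 to 0.19). Its partner Atp6v1b2 was at 120 ± 10.6 and 147 ± 4.89 FPKM, without overlap of the groups (0.28, limma adjusted p = 0.0714). The peripheral stalk subunit Atp6v1g1 also had groups that did not overlap, at 164 ± 13.1 and 201 ± 3.37 FPKM (0.30, adjusted p = 0.0590). Atp6v1c1, Atp6v1e1 and Atp6v1f ranged from 0.04 to 0.17. Of the accessory proteins, Atp6ap1 was at 93.8, 72.6 and 96.0 FPKM in L-OHP and 105, 115 and 104 FPKM in L-OHP+FUC (0.31, adjusted p = 0.109). Atp6ap2, the (pro)renin receptor, was at 93.6, 92.9 and 106 FPKM against 81.8, 89.4 and 94.1 FPKM (-0.14, adjusted p = 0.323), and at 0.13 after the GC and length correction. The groups were separate for Atp6ap1 and overlapped for Atp6ap2.

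Several V-ATPase subunits have alternative isoforms encoded by other genes, and 4 of 10 such isoform genes were expressed enough to be tested. Subunit d2, Atp6v0d2, is the isoform known for its role in osteoclasts and macrophage fusion. It was at 137, 102 and 170 FPKM in L-OHP and 64.7, 74.1 and 87.2 FPKM in L-OHP+FUC, with every fucoidan sample below every other. It fell by 0.83 on the log2 scale (SE 0.20, limma adjusted p = 0.0266), while Atp6v0d1 rose. The ratio of Atp6v0d1 to Atp6v0d2 FPKM was 0.654, 0.703 and 0.521 in L-OHP and 2.16, 1.66 and 1.39 in L-OHP+FUC, so d1 was the lower of the pair in every sample without fucoidan and the higher in every sample with it. The log2 difference of the ratio was 1.46 (exact permutation test, two-sided p = 0.1, the smallest that 3 against 3 samples can give). Each gene of the pair already separated the groups, in opposite directions, so the ratio had to separate them too. That p therefore adds nothing to the values of the separate genes. The sum of both isoforms overlapped between the groups, at 226, 174 and 259 FPKM in L-OHP and 204, 197 and 208 FPKM in L-OHP+FUC. The Atp6v0d2 call was lost without L-OHP replicate 1 or 3 or L-OHP+FUC replicate 1 or 2 (adjusted p 0.0549 to 0.0924), and with no filter (0.0695). With the GC and length correction and a replicate block, Atp6v0d2 was at -0.60 (limma adjusted p = 0.0561). The ratio was taken from FPKM without that correction.

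Of the a isoforms, Atp6v0a2 rose, with 7.45 ± 0.50 FPKM in L-OHP and 10.4 ± 0.219 FPKM in L-OHP+FUC (SD, n = 3; log2 fold change 0.43, limma adjusted p = 0.0149). Without L-OHP replicate 1 or L-OHP+FUC replicate 1 or 2 its adjusted p was 0.0517 to 0.0597. Tcirg1, which encodes a3 and was the most abundant of them per length, was at 186, 182 and 171 FPKM in L-OHP and 162, 151 and 150 FPKM in L-OHP+FUC (-0.22, adjusted p = 0.106). The ratio of Atp6v0a1 to Tcirg1 was 0.103, 0.0887 and 0.162 in L-OHP and 0.193, 0.214 and 0.187 in L-OHP+FUC, without overlap (exact permutation p = 0.1). Here too the separation was fixed in advance, because Atp6v0a1 was higher and Tcirg1 lower without overlap. The sum of the 3 a isoforms was 212, 206 and 206 FPKM against 203, 194 and 189 FPKM. The fourth isoform tested, Atp6v1g2, fell from 1.20 ± 0.0918 to 0.667 ± 0.144 FPKM (-0.40, adjusted p = 0.0321). The call was lost with quantile normalization (0.193) and without L-OHP replicate 1 or 3 or L-OHP+FUC replicate 1 or 2 (0.0739 to 0.102). It was also lost with no filter (0.0819), with a replicate block (0.0651) and with that block and the GC and length correction (0.0730). Atp6v1g2 overlaps Nfkbil1 on the opposite strand, and the use of strand in counting is not given, so its reads cannot be told apart from those of Nfkbil1.

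**Figure D2:**
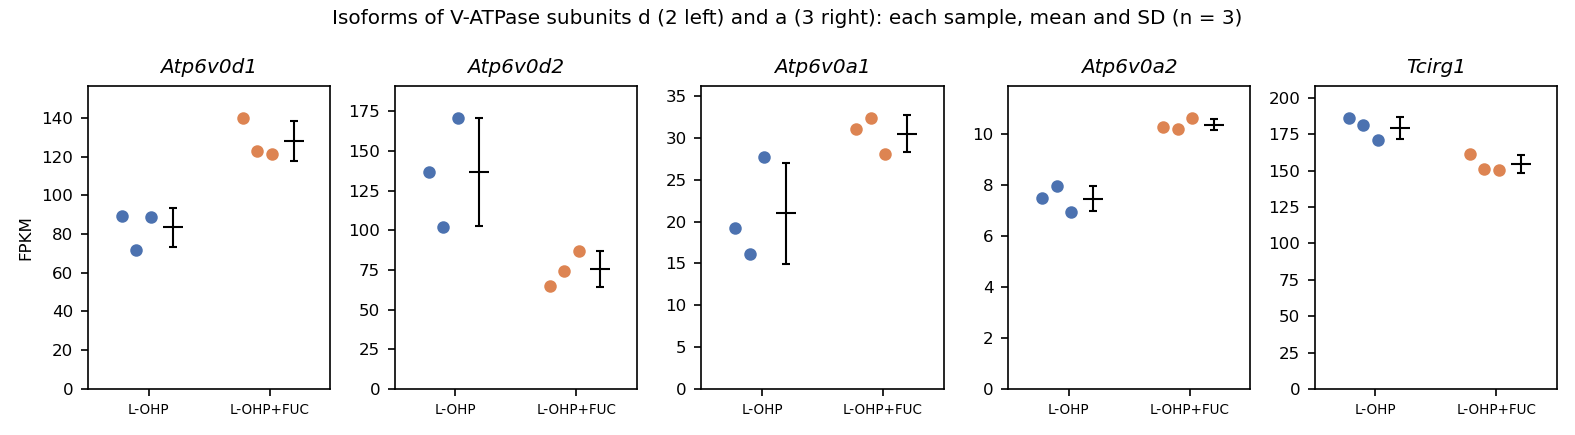
FPKM (y axis, each panel from 0) of isoforms of V-ATPase subunits d (Atp6v0d1, Atp6v0d2) and a (Atp6v0a1, Atp6v0a2, Tcirg1) in the 3 L-OHP and the 3 L-OHP+FUC samples, with mean and SD. Atp6v0d1 was at 71.9 to 89.5 FPKM in L-OHP and 121.1 to 139.7 FPKM in L-OHP+FUC, and Atp6v0d2 moved the other way, from 102 to 170 FPKM to 64.7 to 87.2 FPKM.

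Because Atp6v0d2 and another lysosomal gene, the tartrate-resistant phosphatase Acp5, are osteoclast markers, the 8 osteoclast markers were read beside them. Their summed level was 184 to 243 FPKM in L-OHP and 208 to 220 FPKM in L-OHP+FUC, and of the 5 tested, Acp5 and Mmp9 were called higher and Atp6v0d2 lower. That sum includes Acp5 and Atp6v0d2, the latter at 102 to 170 FPKM in L-OHP, so it is not independent of them. Calcr, Ocstamp and Oscar were too low to be tested, with means of 0 in L-OHP and at most 0.0449 FPKM in L-OHP+FUC. Ctsk, the collagen-cutting cathepsin of osteoclasts, was at 29.5 ± 1.1 and 29.8 ± 3.36 FPKM (SD, n = 3; log2 fold change 0.01). Their part in the result for Atp6v0d2 was not tested.

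Among the cathepsins, none of the 8 was called by limma, and at an unadjusted p under 0.05 there was 1 higher (Ctsd) and 0 lower. Ctsd (chr7:142375911-142388038) encodes the aspartic protease cathepsin D and was among the most abundant transcripts of these cells, ranking 6 to 9 of all genes by FPKM. Its level was 4055, 3087 and 4621 FPKM in L-OHP and 6197, 5820 and 5414 FPKM in L-OHP+FUC. The groups did not overlap, but the L-OHP samples were spread widely, and the log2 fold change of 0.58 (SE 0.19, 95% interval 0.13 to 1.04) had an adjusted p of 0.0613. It passed at 0.0364 to 0.0439 under 5 alternatives, namely quantile normalization, no intensity trend, median ratio rescaling, leaving out L-OHP replicate 3 and a filter at a mean of 5 FPKM. The q-value of Ctsd was 0.00167 in the authors' deposited table.

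Ctss, which encodes cathepsin S, the protease known for processing the invariant chain in antigen presentation, had the lowest fold change of the class. It was at 5789, 4446 and 5843 FPKM in L-OHP and 4167, 4534 and 4015 FPKM in L-OHP+FUC. L-OHP replicate 2 lay within the range of the fucoidan samples and the other L-OHP samples above it (-0.33, limma adjusted p = 0.186). Without that replicate the value was -0.46 (adjusted p = 0.0410), and with quantile normalization it was -0.45 (0.0366). The broad cysteine proteases Ctsb and Ctsl stood at -0.01 (95% interval -0.31 to 0.29) and 0.30 (-0.07 to 0.68). Ctsl passed only with the GC and length correction (0.58, adjusted p = 0.0281). The aminopeptidases and exopeptidases Ctsc (-0.24), Ctsh (-0.27), Ctsz (-0.03) and Ctsa (0.16) had intervals that included 0, and Ctsc was at 0.02 after the GC and length correction.

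Of the enzymes that degrade sugar chains, the α-glucosidase gene Gaa and the sialidase gene Neu1 rose. Gaa (chr11:119267887-119285454) encodes acid α-glucosidase, which breaks down glycogen in lysosomes. Its level was 29.0, 32.3 and 31.7 FPKM in L-OHP and 50.6, 46.1 and 47.3 FPKM in L-OHP+FUC. The groups were far apart relative to their spread, with means of 31.0 ± 1.79 and 47.995 ± 2.32 FPKM (SD, n = 3) and a log2 fold change of 0.61 (SE 0.09, limma adjusted p = 0.00695). Gaa kept its call in the main fit and in all 15 alternatives, with adjusted p up to 0.0393, as no other of the 48 genes did.

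Neu1 (chr17:34931253-34935953) encodes the sialidase that removes terminal sialic acids and works in a complex with Ctsa and Glb1. It was at 29.4, 25.0 and 28.8 FPKM in L-OHP and 38.7, 37.4 and 37.1 FPKM in L-OHP+FUC. The fucoidan samples lay close together and above all others (0.43, SE 0.09, adjusted p = 0.0175). Without L-OHP+FUC replicate 1 or 2 the adjusted p was 0.0654 and 0.0676. Its partners were not called, with Ctsa at 0.16 and Glb1 at 0.10 (adjusted p = 0.581). Glb1 shares exon sequence with Tmppe on the same strand, listed at a mean of 7.32 FPKM, and Ctsa overlaps the abundant Pltp on the opposite strand.

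The other 8 glycosidases and sulfatases did not pass. Hexa, the α chain of β-hexosaminidase, was at 393 ± 26.4 FPKM in L-OHP and 486 ± 32.9 FPKM in L-OHP+FUC, without overlap (0.31, limma adjusted p = 0.0743). Sgsh, the heparan N-sulfatase, had the lowest value of the class, with 9.28, 8.05 and 14.8 FPKM in L-OHP against 8.20, 8.57 and 7.17 FPKM in L-OHP+FUC. L-OHP replicate 3 stood above all the others, and the groups overlapped (-0.34, adjusted p = 0.250). Naglu, another enzyme of heparan sulfate breakdown, had the widest spread with fucoidan relative to its mean, at 69.5 ± 20.4 FPKM against 57.4 ± 9.82 FPKM (0.24, adjusted p = 0.477). Gusb, Man2b1, Galc and Arsb lay between -0.15 and 0.14.

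Fucoidan is rich in fucose and sulfate, and the α-fucosidase genes, which are not in the list of 48, were read for that reason. Fuca1 was at 36.4 ± 2.46 and 38.5 ± 4.07 FPKM (SD, n = 3; log2 fold change 0.07, limma adjusted p = 0.625) and Fuca2 at 11.3 ± 0.902 and 12.1 ± 2.08 FPKM (0.08, adjusted p = 0.690). The 95% intervals were -0.17 to 0.32 and -0.24 to 0.40, and the GC and length correction put Fuca1 at -0.01. Among 18 other glycosidases and sulfatases, 4 rose (Hgsnat, Galns, Arsa and Arsg, or 22.2% beside 7.67% of all genes tested) and Hyal1 fell (5.56% beside 19.3%), all but Hgsnat being named after their values were seen. Hgsnat, which acetylates heparan sulfate during its breakdown, rose from 42.7 ± 4.09 to 69.2 ± 0.507 FPKM (0.69, adjusted p = 0.00667). Galns, Arsa, Arsg and Hyal1 each lost the call without L-OHP+FUC replicate 1 or 2 (adjusted p 0.0674 to 0.140), and Arsg did so without any single library. Arsa was at 0.34 (adjusted p = 0.0274), lost the call without L-OHP replicate 1 as well (0.0899), and was at 0.21 (0.0843) after the GC and length correction. Hyal1 lost it without L-OHP replicate 1 or 3 (0.0676 and 0.0538) and with no filter (0.0577), and Arsg with no filter (0.0934). Arsg overlaps Slc16a6 on the opposite strand and Hyal1 overlaps Naa80 on its own.

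None of the 7 lipid hydrolases, other hydrolases and lumenal proteins was called by limma. At an unadjusted p under 0.05, Lipa was higher and Npc2 lower. Lipa, the acid lipase that frees cholesterol and fatty acids from ingested lipoproteins, was at 303, 279 and 374 FPKM in L-OHP and 401, 411 and 384 FPKM in L-OHP+FUC. All fucoidan samples were above all others, L-OHP replicate 3 being the nearest (0.33, adjusted p = 0.0997). It passed with the GC and length correction (0.58, adjusted p = 0.0201), with median ratio rescaling (0.0434) and without L-OHP replicate 3 (0.0345). Npc2, the lumenal carrier of cholesterol, was at 297, 250 and 265 FPKM in L-OHP and 240, 223 and 218 FPKM in L-OHP+FUC, again without overlap (-0.25, adjusted p = 0.113). Psap, the precursor of the saposins that help sphingolipid hydrolases, was among the 6 most abundant genes in every library, at 5557 ± 342 and 6068 ± 407 FPKM (0.13, adjusted p = 0.554). Grn, Tpp1, Ppt1 and Asah1 lay between -0.10 and 0.17.

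Among the 6 membrane proteins, Npc1 rose and Mcoln1 fell (16.7% each, beside 7.67% and 19.3% of all genes tested). Npc1 is the membrane partner of Npc2 and exports cholesterol from the lysosome. It was at 26.8, 35.6 and 40.9 FPKM in L-OHP and 49.9, 54.5 and 47.0 FPKM in L-OHP+FUC. The L-OHP samples were far apart, all below the fucoidan samples, and the log2 fold change was 0.56 (SE 0.16, limma adjusted p = 0.0418). This call was the weakest of the 8 in that it was lost in 9 of 15 alternatives, among them no filter (adjusted p = 0.0927), quantile normalization (0.0608) and leaving out any library other than L-OHP replicate 3 (0.0583 to 0.132). Npc1 overlaps Rmc1 on the opposite strand, listed at a mean of 6.24 FPKM. The pair of cholesterol carriers thus had values on opposite sides of 0, and the difference between them was not tested.

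Mcoln1 (chr8:3500457-3515232) encodes mucolipin TRPML1, the cation channel through which lysosomes release calcium. It was at 10.9, 11.7 and 10.8 FPKM in L-OHP and 8.43, 8.45 and 8.21 FPKM in L-OHP+FUC. Both groups were tight and separate, with means of 11.1 ± 0.457 and 8.36 ± 0.135 FPKM (SD, n = 3), and it fell by 0.37 on the log2 scale (SE 0.08, limma adjusted p = 0.0172). After median ratio rescaling the adjusted p was 0.0565, and without L-OHP replicate 1 or L-OHP+FUC replicate 1 or 2 it was 0.0550 to 0.0686. The authors' deposited table gave Mcoln1 a q-value of 0.194 and Atp6v1d one of 0.289.

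Laptm5, a lysosomal membrane protein of blood cells, was at 328 ± 39.4 and 435 ± 40.0 FPKM without overlap (0.41, limma adjusted p = 0.0555). It passed under 3 alternatives, which were median ratio rescaling, no intensity trend and leaving out L-OHP replicate 2. The structural glycoproteins Lamp1 and Lamp2, which coat the inner face of the membrane, were at 0.24 (95% interval -0.11 to 0.58) and -0.18 (-0.41 to 0.06), and correcting for GC content and length put Lamp2 at 0.15. The tetraspanin Cd63 was at -0.20 (-0.61 to 0.22), with L-OHP replicate 2 at 271 FPKM above the 175 and 187 FPKM of its group. A copy of it, Cd63-ps, was listed at a mean of 71.4 FPKM, so the level of Cd63 is uncertain.

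**Figure D3:**
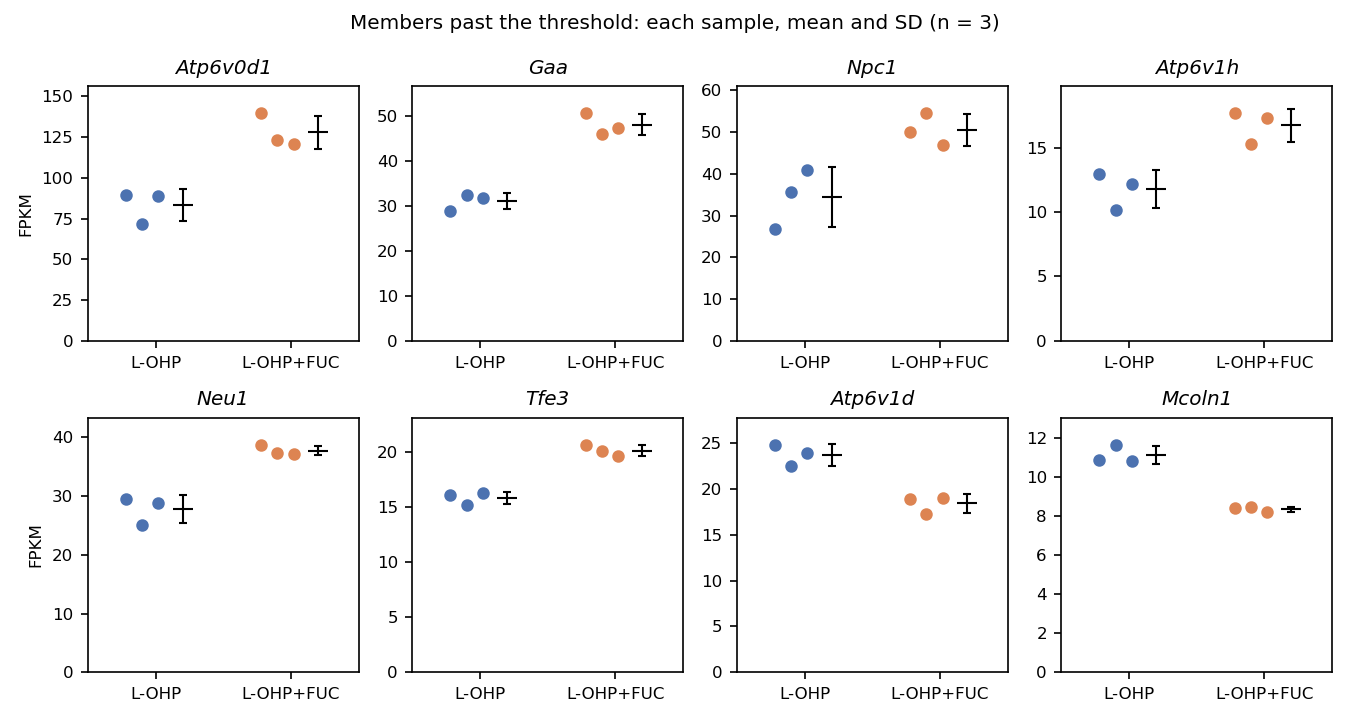
FPKM (y axis, each panel from 0) of the 8 called lysosomal genes in each of the 3 L-OHP (blue) and 3 L-OHP+FUC (orange) samples, with mean and SD beside the points. The groups do not overlap in any of the 8, the widest spread within L-OHP relative to the mean being that of Npc1 (26.8 to 40.9 FPKM, a coefficient of variation of 20.7%).

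Of the transcription factors, Tfe3 rose and Tfeb was not called. Tfe3 (chrX:7762560-7775202) was at 16.1, 15.2 and 16.3 FPKM in L-OHP and 20.7, 20.2 and 19.6 FPKM in L-OHP+FUC. The groups were separate by more than their spread (0.33, SE 0.08, limma adjusted p = 0.0232), but without L-OHP replicate 1 or L-OHP+FUC replicate 1 or 2 the adjusted p was 0.0693 to 0.0904. Tfeb was at 5.29, 12.0 and 8.39 FPKM in L-OHP and 8.35, 8.40 and 7.92 FPKM in L-OHP+FUC. The L-OHP samples lay on both sides of the fucoidan samples (0.01, 95% interval -0.57 to 0.59), and a change within that interval was not detectable with 3 samples a group. The related factors Mitf (-0.34, adjusted p = 0.0689) and Tfec (-0.26, adjusted p = 0.323) were not called, and Tfec was at 0.02 after the GC and length correction, where Tfeb was at -0.19.

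Among 17 other tested genes of MiT/TFE control and nutrient sensing at the lysosome, 1 rose (5.88%) and 5 fell (29.4%), beside 7.67% and 19.3% of all genes tested. Flcn, folliculin, which forms a complex with the Fnip proteins that acts on the Rag GTPases and so on the location of TFEB and TFE3, was at 20.2, 26.8 and 29.9 FPKM in L-OHP and 10.8, 11.2 and 10.6 FPKM in L-OHP+FUC. Every fucoidan sample was far below every other sample. It fell by 1.15 on the log2 scale (SE 0.14, limma adjusted p = 0.00535) and kept its call in every alternative run. Fnip2 fell by 0.74 (adjusted p = 0.00872), also in every alternative, and Fnip1, named after its value was seen, by 0.97 (adjusted p = 0.0182). The others that passed, likewise named after their values were seen, were Lamtor1 (0.31, adjusted p = 0.0359), Lamtor2 (-0.27, 0.0431) and Slc38a9 (-0.43, 0.0159). Fnip1 lost its call with no filter (adjusted p = 0.0507) and without L-OHP replicate 3 or L-OHP+FUC replicate 1 or 2 (0.0501 to 0.0673). Activity and location of the factors were not measured.

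The 48 genes were set beside 115 other lysosomal genes that were listed for this comparison, of which 103 were tested. Of these, 14 rose (13.6%, beside 7.67% of all genes tested), 15 fell (14.6%, beside 19.3%) and 74 did not pass, with a median of 0.03. Rises included Acp5 (1.01, limma adjusted p = 0.00479) and Slc11a1, the metal transporter NRAMP1 (0.72, adjusted p = 0.00731), both called in every alternative. Of 9 tested genes listed under V-ATPase assembly and its control, 3 fell (33.3%, beside 19.3% of all genes tested). By limma 0 rose (0 also at an unadjusted p under 0.05), beside 7.67%. The 3 that fell were Ccdc115 (-0.97, adjusted p = 0.00524), which acts in V0 assembly, and Dmxl1 and Dmxl2 of the complex that joins V1 to V0. The last pair, named after their values were seen, were at -0.77 and -0.89 (adjusted p = 0.030 and 0.0166) and at -0.13 and -0.46 after the GC and length correction (0.373 and 0.0616). Both lost the call without L-OHP replicate 1 or L-OHP+FUC replicate 1 or 2 (0.0545 to 0.0929). Dmxl1 also lost it without L-OHP replicate 3 (0.0808), with no filter (0.0793) and with quantile normalization (0.0541). The lysosome term in the deposited table held 305 tested genes, with a median of 0.01. Of these, 35 were higher (11.5%) and 38 lower (12.5%), beside 7.67% and 19.3% of all genes tested. The term covered 33 of the 48 genes. Without these 33 it held 272 tested genes, with 32 higher (11.8%), 37 lower (13.6%) and a median of 0.00.

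Within the groups, the 48 genes varied more among the L-OHP samples than among those with fucoidan. The median coefficient of variation was 12.1% in L-OHP and 6.15% in L-OHP+FUC, and 38 of the 48 genes had the larger one in L-OHP. Over all genes tested the medians were 13.6% and 11.5%, and 55.4% of genes had the larger one in L-OHP. L-OHP replicate 2 was the lowest of its group in 32 of the 48 genes and L-OHP replicate 3 the highest in 23, while L-OHP+FUC replicate 3 was the lowest of its group in 30. Together the 48 genes held 7.65%, 7.26% and 8.09% of the summed FPKM in L-OHP and 8.13%, 8.11% and 7.56% in L-OHP+FUC, so these shares overlapped. The V0 median was above 0 in every fucoidan sample and below 0 in every other, with a median deviation from the gene means of -0.29, -0.38 and -0.21 in L-OHP and 0.31, 0.22 and 0.12 in L-OHP+FUC. For the cathepsins these medians ran from -0.06 to 0.03 in L-OHP and from -0.03 to 0.04 in L-OHP+FUC.

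**Figure D4:**
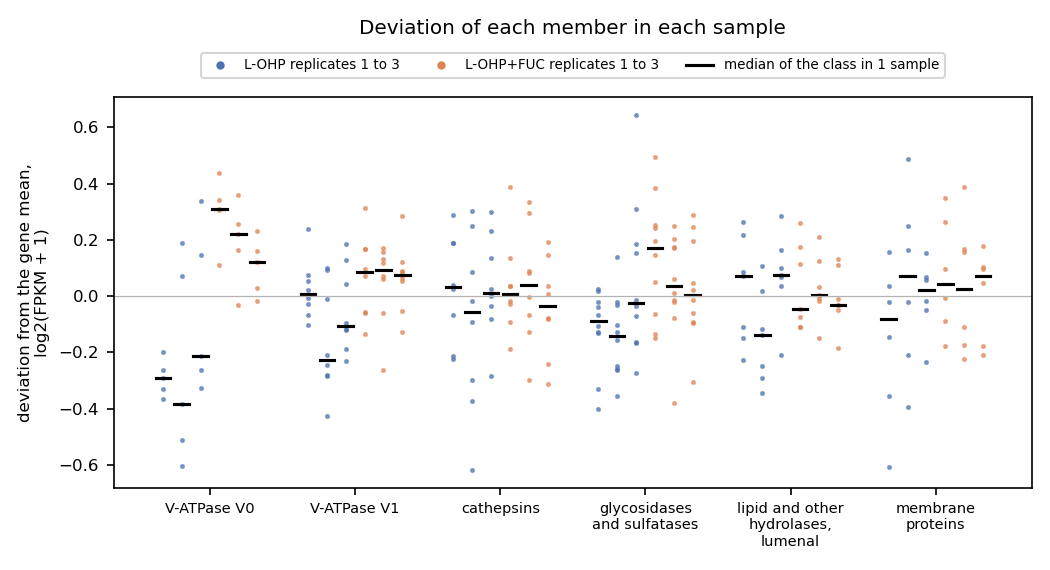
Deviation of each gene from its mean over the 6 samples (y axis, log2(FPKM + 1)), by class and sample. Blue points are the L-OHP samples, orange points the L-OHP+FUC samples, each group in replicate order, and black bars the median of a class in a sample. The V0 medians are -0.38 to -0.21 in L-OHP and 0.12 to 0.31 in L-OHP+FUC, and those of the cathepsins lie between -0.06 and 0.04.

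The authors' own test called genes of the list in the higher direction. In the authors' deposited table, 15 of the 48 had a q-value under 0.05 with a fold above 1 and 0 with a fold below 1, beside 9.93% and 12.9% of the genes tested here (22.9% in either direction). Their deposited p-values were not largest near a fold of 1. Arsb, at a fold of 0.922, had a p of 0.957 in their test, and Ctsb, at 0.993, one of 0.469. Their test may thus rest on another scale than the fold, so this split is not on the scale of the limma calls. None of the 48 carried the authors' mark of significance. The 15 included all 6 genes that limma called higher and neither of the 2 that it called lower. The other 9 were Ctsd, Hexa, Lipa, Laptm5, Atp6v0a1, Atp6v0b, Atp6v1b2, Atp6v1g1 and Atp6ap1. In the authors' deposited table the q-value was 6.48e-05 for Gaa and 0.000223 for Atp6v0d1.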

How the data were processed

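Total RNA of mouse BMDM, depleted of ribosomal RNA, was sequenced in 3 L-OHP and 3 L-OHP+FUC samples, grouped by the labels' titles. Per the submitters' processing notes, bcl2fastq 2.0, HISAT2, StringTie, DESeq2, limma and the build mm10 were used; the role of each, the annotation release and whether strand was used are given in none of the sources used here. The authors' FPKM, 1 column a library per the file headers, hold 0.0001 for 0, which was set back to 0 here. The authors' fold column is the ratio of mean FPKM, per the file headers, and was checked on the values. The log2 column is the authors' log2 of that fold, per the file headers. The authors' p-value and q-value columns were deposited without the tool that gave them.

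Low FPKM values were whole reads within 0.03 for only 35.3% to 40.6% of values, so no counts were recovered and no count test was run. Group was the single term of a limma fit (limma 3.58.1, R 4.3.3) to log2(FPKM + 1), with an intensity trend and Benjamini-Hochberg adjustment at 0.05, two-sided, for the 12084 genes that reached 0.5 FPKM in 3 or more of 6 libraries. The code was tested on simulated data. No pair of libraries shared an identical value above 0 among tested genes. GENCODE M21 (on GRCm38, the assembly behind mm10) gave coordinates, GC content and lengths, and promoters came from RefSeq (GRCm38.p6). Where a symbol named several rows, the one with the higher mean FPKM was used.

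The genes, lists and naming rule were chosen with earlier results of these data known. Values in every sample were given for called genes, the highest and lowest of each class, Tfeb and Tfe3. Among other lysosomal genes, the rule named the 6 with the smallest p past the threshold, tested V-ATPase isoforms, Fuca1, Fuca2, Gpnmb, Mitf and Tfec. Gpnmb was at 0.27 (adjusted p = 0.173). Alternatives were quantile normalization, median ratio rescaling, a pseudocount of 0.1, no intensity trend, no filter, a filter at a mean of 5 FPKM, a replicate block, a loess correction for GC content and length (span 0.3, 4 iterations) with and without the block, and leaving out each library.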

Additional observations from a re-analysis of the deposited data

How the results depend on the processing

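The 6 and 2 calls among the 48 genes, and the 3262 over all genes, depended on scaling and on single libraries. With the GC and length correction 11 of the 48 genes were higher and 1 lower, V-ATPase subunits 5 and 0, cathepsins 1 higher, and other lysosomal genes 9 lower. With that correction and the replicate block, 1460 genes were called over all, 0 of the 48 and 0 V-ATPase subunits were lower, 1 glycosidase or sulfatase was higher, and 9 and 5 other lysosomal genes were higher and lower. Median ratio rescaling gave 14 higher and 0 lower of the 48, 6 and 0 of the V-ATPase, and 1 cathepsin higher. No filter gave 2081 calls over all, 1 V-ATPase subunit higher and 7 other lysosomal genes lower. A mean of at least 5 FPKM gave 1720 calls over all and 1 cathepsin higher, no intensity trend gave 1 cathepsin higher, and quantile normalization 1 higher and 1 lower. A pseudocount of 0.1 left every one of the 48 calls as it was.

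The replicate block alone gave 2316 calls over all, with 1 of the 48 genes (Mcoln1) and 0 V-ATPase subunits lower, Tfe3 at an adjusted p of 0.0619, Npc1 at 0.0636 and Atp6v1d at 0.0532, and Arsa and Arsg, outside the 48, at 0.0696 and 0.0851. Same-numbered samples correlated at -0.04, -0.07 and 0.08 in their deviations, so the numbers were not taken to pair the samples, and not every sample correlated best with its own number.

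Leaving out each library in turn gave 1101 to 3377 calls over all, 1 to 9 of the 48 genes higher and 0 to 3 lower, 0 to 4 V-ATPase subunits higher and 0 to 1 lower, 0 to 1 cathepsin higher and 0 to 1 lower, 1 to 2 glycosidases or sulfatases higher and 0 to 0 lower, and 7 to 14 other lysosomal genes higher and 3 to 16 lower. Without L-OHP+FUC replicate 1, and likewise without replicate 2 of that group, Gaa was the 1 gene of the 48 called higher. The cause was not tested. The median of all genes was -0.10 in the main analysis, and the split of all calls was 927 higher and 2335 lower, against 1581 and 1680 with median ratio rescaling, 1565 and 1359 with quantile normalization, and 1390 and 1437 with the GC and length correction. With 3 samples a group and no counts, small changes of genes that varied widely between samples, such as Tfeb (SE 0.24), were not detectable. Arsb, which also had few fragments, had an SE of 0.096 and was not called (-0.09, limma adjusted p = 0.515).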
